A study of Mus musculus with 12 samples.

Results

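The brush border digestive enzymes were followed as 10 genes, namely Sis, Lct, Treh, Anpep, Enpep, Dpp4, Mep1a, Mep1b, Akp3 and Plb1, out of 55414 gene rows in the count table. A row was taken when its GENCODE symbol was one of these names, a rule that uses no measured value, although the set itself was drawn up with earlier results of these data known. All 10 rows were found, and all 10 passed the filter on low counts that left 13057 genes for testing.

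The brush border is the dense layer of microvilli on the lumen-facing side of absorptive enterocytes, and its membrane carries the enzymes that complete digestion at the surface where uptake takes place. Disaccharidases split sugars, peptidases trim peptides to amino acids and short peptides, and a phosphatase and a phospholipase act on phosphate esters and phospholipids. These proteins are made as cells mature and leave the crypt, so that their transcripts are used as signs of the absorptive lineage, while Paneth cells at the crypt base are secretory cells filled with antimicrobial granules.

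RNA was sequenced in bulk from small intestinal crypt cells of naive C57BL/6J mice, which the study's methods give as 8 to 12 weeks old. The mice were either GRWT (WT here) or GRvillinKO (GRKO here), a line without the glucocorticoid receptor gene Nr3c1 that the labels name after villin, a gene of intestinal epithelial cells. The Cre transgene and the exons it removes are not given in the sources used here. Cells were sorted by flow cytometry into Paneth cells (PC), gated in the study's methods as CD24+ cKIT+ cells of medium to high side scatter without CD31, CD45 or TER119, and remaining crypt cells (non-PC). With 3 libraries in each of the 4 groups, the set had 12 libraries, and nothing in the labels says which libraries came from the same mouse or whether mice were pooled.

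Library totals ran from 11126297 to 12758582 counts in WT Paneth, 12511664 to 13965973 in GRKO Paneth, 12890785 to 15369985 in WT non-Paneth and 14713820 to 15910292 in GRKO non-Paneth libraries. The genotype in the library titles was used, since a separate genotype field in the labels gives the same genotype to every library of a fraction. Nr3c1 followed the titles. It stood at 135, 151 and 160 CPM (counts of the gene per 1000000 counts of the library) in WT and 29.2, 19.6 and 36.2 CPM in GRKO non-Paneth libraries, and at 33.7, 33 and 41.1 CPM in WT and 5.28, 4.73 and 12.1 CPM in GRKO Paneth libraries. The fitted log2 fold change of Nr3c1 was -2.67 ± 0.30 (SE, adjusted p = 6.66e-05) in non-Paneth and -2.31 ± 0.32 (adjusted p = 0.0331) in Paneth cells. All 9 Paneth markers, such as Lyz1 and Defa24, were higher and all 12 enterocyte markers lower in WT Paneth than in WT non-Paneth cells. Both WT libraries numbered 2 stood apart in Xist, which lay at 127 CPM in the Paneth and 257 CPM in the non-Paneth library and below 1 CPM in the other 10. The genotypes were thus not balanced in Xist, and fits without both of these libraries are given further on.

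On GRCm39, the build of the annotation used for names, Lct (ENSMUSG00000026354) and Akp3 (ENSMUSG00000036500) lie on chromosome 1, at chr1:128212493-128256055 on the minus and chr1:87052695-87055634 on the plus strand. Chromosome 3 carries Sis (ENSMUSG00000027790, chr3:72795890-72875196) and Enpep (ENSMUSG00000028024, chr3:129062824-129126369), both on the minus strand. Dpp4 (ENSMUSG00000035000, chr2:62159798-62242576), Anpep (ENSMUSG00000039062, chr7:79471551-79510807) and Mep1a (ENSMUSG00000023914, chr17:43785215-43813703) are also on the minus strand. The plus strand carries Plb1 (ENSMUSG00000029134, chr5:32390052-32523864), Treh (ENSMUSG00000032098, chr9:44584530-44597602) and Mep1b (ENSMUSG00000024313). All 10 are protein coding, with between 7 exon blocks in Akp3 and 62 in Plb1. The strand used for counting is not stated in the sources used, so reads of Anpep, Dpp4 and Plb1 cannot be told apart from those of antisense RNAs that overlap short stretches of their exons, nor those of the last bases of Treh from its neighbour Phldb1. Exonic windows of 100 bases were unique to their gene in 9 members, and 0.0429% of those of Dpp4 were shared with another gene.

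Promoter windows from RefSeq (GRCm38.p6, 250 bases before to 50 bases after the start of transcription) were at hand for 9 of the 10 genes, all but Mep1b. They were searched on both strands for short motifs of the factors known for intestinal promoters, with TTTATG for CDX factors, GTTAAT for the HNF1 family, AGATAA for the GATA family and CAAAGTCCA for the HNF4 family. An arm of the glucocorticoid response element was read as AGAACA, and the full element as that arm, then 3 bases of any kind, then TGTTCT. The CDX hexamer was in the windows of Sis, Lct, Mep1a and Plb1, 4 of the 9, and in 11.9% of all 32851 promoters. The GATA hexamer was in Lct and Dpp4 and in 11.2% of all promoters, and the HNF1 hexamer in Sis alone and in 7.1%. The letters TATAAA of a TATA box were in Sis, Enpep and Dpp4 and in 13.6% of all promoters. They lay 138 and 134 bases before the start in Sis, 52 and 1 in Enpep and 227 in Dpp4. Both Enpep matches and the Sis match at 138 read on the opposite strand. A stretch around a CDX or HNF4 match is shown for the 3 disaccharidase genes, whose levels are given next to their roles further on, with the match in capitals and the strand of the gene.
Sis, 43 bases before the start (chr3:72967891-72967916, minus): gcaataaaacTTTATGagtagtcaat
Lct, 31 bases before the start (chr1:128328334-128328359, minus): tggctgtgctCATAAAgtcaggattc
Treh, 71 bases before the start (chr9:44673152-44673180, plus): cctcatagccTGGACTTTGgctgacctgg
The Sis match reads along the gene and the Lct match on the opposite strand. The HNF4 match of Treh was found in 0.475% of all promoters, and in no other member. A single arm of the glucocorticoid response element, present in 19% of promoters, was found in Dpp4 alone, 203 bases before its start (chr2:62412419-62412444, minus), as shown next because Nr3c1 encodes the receptor that binds it.
Dpp4: gtaatcgagtAGAACAatgcttaaag
The full element was in 0 of the 9 windows and in 0.00913% of all promoters. These matches are letters in a short window, and nothing about binding was measured.

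The 10 enzymes together took 1.35% ± 0.14 (SD, n = 3) of all counts in WT non-Paneth and 0.416% ± 0.048 in GRKO non-Paneth libraries. In the Paneth libraries they took 0.0331% ± 0.0208 in WT and 0.0366% ± 0.0157 in GRKO. The levels of the groups thus fell into 3 tiers, with WT non-Paneth cells on top, GRKO non-Paneth cells below them, and Paneth cells of both genotypes at the bottom. In bulk samples, fewer cells of a type and less RNA per cell cannot be told apart, and this applies to every difference given here.

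**Figure D1:**
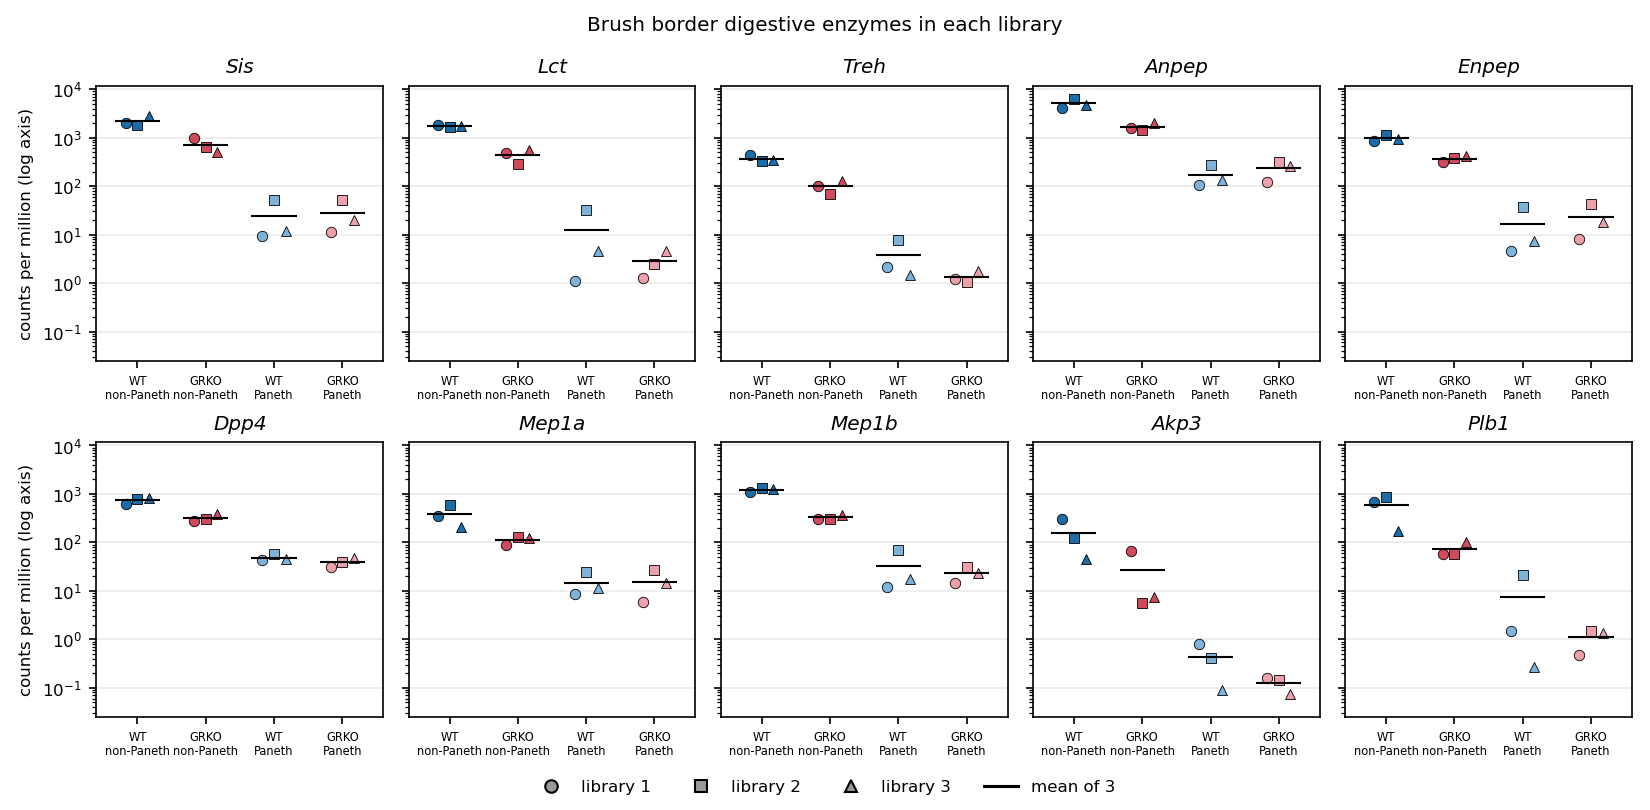
CPM of all gene counts (log axis) of each of the 10 enzymes in the 12 libraries, with libraries as symbols and the mean of 3 as a bar. Every WT non-Paneth library lies above every GRKO non-Paneth library for 9 of the 10 genes, all but Akp3, and every Paneth library lies below every non-Paneth library of its genotype.

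Loss of the receptor in non-Paneth cells was compared first, since these cells hold the absorptive lineage. Of the 10 enzymes, 6 fell in GRKO non-Paneth cells (Treh, Anpep, Dpp4, Mep1a, Mep1b and Plb1), none rose, and 4 did not pass the test at a 5% false discovery rate (Sis, Lct, Enpep and Akp3), while 19.8% of all genes tested fell. All 10 fitted differences were negative, from -1.49 to -3.29 on the log2 scale, with a median of -2.10 against 0.02 over all genes tested. At an unadjusted p below 0.05, 9 of the 10 were lower, beside 6073 of the 13057 genes tested that differed in either direction. The CPM of the GRKO libraries lay wholly below the CPM of the WT libraries for 9 of the 10, and for 16.3% of all genes tested.

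Sucrase-isomaltase (Sis), which splits sucrose and the branch points of starch, stood at 1993, 1842 and 2757 CPM in WT and 987, 638 and 507 CPM in GRKO non-Paneth libraries. The 2 sets of libraries did not overlap, yet the fold change of 3.76 (log2 fold change -1.91 ± 0.76, adjusted p = 0.0798) did not pass the threshold. Lactase (Lct), the enzyme for milk sugar, had 1846, 1656 and 1730 CPM in WT and 490, 285 and 546 CPM in GRKO. These WT libraries lay within 1.11-fold of each other, and every GRKO library was lower, with a log2 fold change of -2.27 ± 0.92 (adjusted p = 0.086). Trehalase (Treh), which splits the fungal and insect sugar trehalose, had 434, 335 and 342 CPM in WT and 100, 68.1 and 128 CPM in GRKO. Treh fell 4.57-fold (log2 fold change -2.19 ± 0.47, adjusted p = 0.00595), and was the disaccharidase that passed the test.

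Among the peptidases, aminopeptidase N (Anpep), which removes neutral residues from the amino end of peptides, was the most abundant transcript, with 4165, 6441 and 4739 CPM in WT and 1604, 1457 and 1971 CPM in GRKO non-Paneth libraries. It fell 3.73-fold (log2 fold change -1.90 ± 0.42, adjusted p = 0.0052), and the lowest WT library was above the highest GRKO library. Glutamyl aminopeptidase (Enpep), which removes acidic residues, had 872, 1122 and 929 CPM in WT and 316, 377 and 414 CPM in GRKO. Its libraries did not overlap either, but the log2 fold change of -1.69 ± 0.77 missed the threshold (adjusted p = 0.121). Dipeptidyl peptidase 4 (Dpp4), which cuts dipeptides after proline or alanine, had 607, 800 and 818 CPM in WT and 282, 306 and 382 CPM in GRKO. Dpp4 showed the smallest difference of the 10 and the smallest error (log2 fold change -1.49 ± 0.19, 2.80-fold, adjusted p = 5.55e-05).

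The meprins are metalloproteases built from the alpha subunit Mep1a and the beta subunit Mep1b. Mep1a had 346, 591 and 208 CPM in WT and 89.9, 131 and 123 CPM in GRKO non-Paneth libraries. The WT values of Mep1a spread 2.84-fold, with library 3 lowest, and all 3 remained above the GRKO values (log2 fold change -2.03 ± 0.58, adjusted p = 0.0243). Mep1b had 1072, 1305 and 1253 CPM in WT and 311, 300 and 372 CPM in GRKO. Both sets were tight for Mep1b, and its log2 fold change was -2.17 ± 0.63 (adjusted p = 0.0254).

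Akp3, an intestinal alkaline phosphatase, had 306, 123 and 46.5 CPM in WT and 67.7, 5.72 and 7.39 CPM in GRKO non-Paneth libraries. It was the enzyme whose groups overlapped, because GRKO library 1 lay above WT library 3, and its log2 fold change was -2.83 ± 1.01 (adjusted p = 0.0559), which became -4.94 without GRKO library 1 and -2.01 without WT library 1. Phospholipase B1 (Plb1), which hydrolyses dietary phospholipids and retinyl esters, had 692, 871 and 172 CPM in WT and 57.5, 56.8 and 103 CPM in GRKO. Plb1 showed the largest fitted difference of the 10 (log2 fold change -3.29 ± 1.08, 9.80-fold, adjusted p = 0.0428), and WT library 3 lay nearest to the GRKO values.

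The number of enzymes called depended on the fit. Treh, Anpep and Dpp4 passed under every alternative run, whereas the count of enzymes ran from 3 to 7 when each library compared was left out in turn. It was 3 without GRKO library 2, GRKO library 3 or WT library 2, and at a 1% false discovery rate, 8 by DESeq2 (which gave no adjusted p for Lct), 9 without both WT libraries numbered 2 or with the 4 groups not fitted together, and 10 with no filter on low counts.

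**Figure D2:**
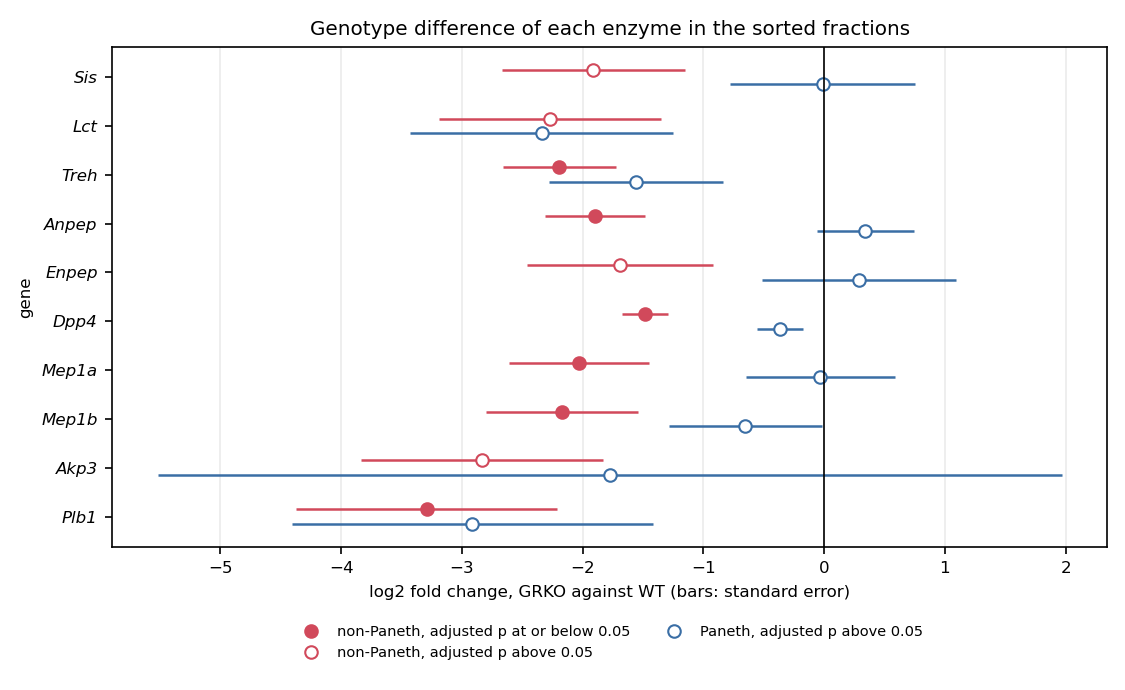
Log2 fold change of GRKO against WT (points) with its standard error (bars) for each enzyme in non-Paneth and in Paneth cells; filled points passed the 5% false discovery rate. All 10 non-Paneth values are negative and 6 are filled, and 0 of the 10 Paneth values are filled.

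Other genes of the brush border and of nutrient uptake were given by lists, in a comparison where 2586 of the 13057 genes tested fell and 2283 rose. Of 16 other brush border hydrolases, 15 were tested, and 11 fell and none rose in GRKO non-Paneth cells (median log2 fold change -2.14). They included Nt5e, which makes adenosine (-2.60 ± 0.52, adjusted p = 0.00299), the pantetheinase Vnn1 (-2.36 ± 0.40, adjusted p = 0.00167), and the neutral ceramidase Asah2 (-2.20 ± 0.38, adjusted p = 0.00167). Mgam, the maltase-glucoamylase that acts beside Sis on starch, fell least of the 11 (-0.92 ± 0.23, adjusted p = 0.00714). Folh1 did not pass the filter on low counts.

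Of 12 transporters that take up the products of these enzymes, 10 fell and 1 rose, with a median of -1.76. The glucose transporter Slc5a1 fell by 1.70 on the log2 scale (SE 0.24, adjusted p = 0.00015), the fructose transporter Slc2a5 fell by 1.77 (SE 0.28, adjusted p = 0.000476) and the peptide transporter Slc15a1 fell by 2.19 (SE 0.74, adjusted p = 0.0472). Slc1a1, which carries acidic amino acids, was the one that rose (0.53 ± 0.15, adjusted p = 0.0109). The amino acid transporter Slc6a19 had -2.14 ± 0.74 (adjusted p = 0.0513).

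The 14 transcription factors known for intestinal epithelium had a median log2 fold change of -0.08, with 7 of the 14 positive. Of the 14, 5 fell and 1 rose, beside 2586 that fell and 2283 that rose of all 13057 genes tested. Those that fell were Maf (-2.11 ± 0.44, adjusted p = 0.00504), Prdm1 (-2.04 ± 0.32, adjusted p = 0.000255), Klf4 (-1.49 ± 0.15, adjusted p = 9.02e-06), Hnf4g (-1.09 ± 0.28, adjusted p = 0.0105) and Gata5 (-0.77 ± 0.14, adjusted p = 0.00069). The one that rose was Cdx1 (0.62 ± 0.14, adjusted p = 0.00314). Cdx2, whose hexamer is shown for Sis and Lct, had a log2 fold change of 0.04 ± 0.10 (adjusted p = 0.81), and Hnf4a had 0.24 ± 0.14 (adjusted p = 0.194).

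Markers of cell types moved in different directions, in a comparison where 2283 of the 13057 genes tested rose and 2586 fell. Of 12 enterocyte markers, 9 fell in GRKO non-Paneth cells and none rose (median -2.14), and their summed level was 34202 to 37825 CPM in WT and 9064 to 11313 CPM in GRKO, with none of the 12 at 0. All 6 proliferation markers rose (median 0.67), from a summed 929 to 1070 CPM in WT to 1987 to 2030 CPM in GRKO, and 4 of 6 stem cell markers rose. All 4 tuft markers tested rose, from a summed 3.80 to 10.5 CPM in WT to 92.8 to 370.1 CPM in GRKO. Of the 6 goblet markers 2 fell, of the 9 Paneth markers 1 rose, and 0 of the 7 enteroendocrine markers and 0 of the 3 immune markers tested were called. Of the 7 stromal, endothelial and blood markers only Vim was tested, and it rose. The part of these cell types in the fall of the enzymes was not tested.

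The enzymes were next set against enterocyte transcripts of the same library. A relative level was the log2 level of the gene (CPM after adding 0.5 counts) minus the mean log2 level of 11 enterocyte markers, Alpi being left out as a phosphatase. On this scale 9 of the 10 enzymes overlapped between WT and GRKO non-Paneth libraries, Dpp4 was higher in every GRKO library, and none was lower in all of them. Over all genes tested, 92.2% were higher and 0.268% lower on this scale. The median of the 10 differences was 0.03. Dpp4 moved from -2.0, -1.40 and -1.66 in WT to -1.38, -0.92 and -0.94 in GRKO. Mgam, not one of the 10, had the higher value in every GRKO library by 1.18 on average.

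With Vil1 (villin, a structural protein of the microvillus) as the reference, the picture was less even. Lct, Treh and Mep1b were lower in every GRKO than in every WT non-Paneth library, by 0.83, 0.73 and 0.67 on the log2 scale, and the other 7 overlapped, with a median of -0.56. Over all genes tested, 1.99% were lower and 86.9% higher on this scale. Lct relative to Vil1 was -0.67, -0.88 and -0.80 in WT and -1.44, -2.15 and -1.23 in GRKO. Vil1 itself fell by 1.5 (SE 0.16, adjusted p = 1.62e-05), which was less than the median of the enterocyte markers. These relative levels are a description, with no test, and the reference genes were chosen with earlier results known.

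**Figure D3:**
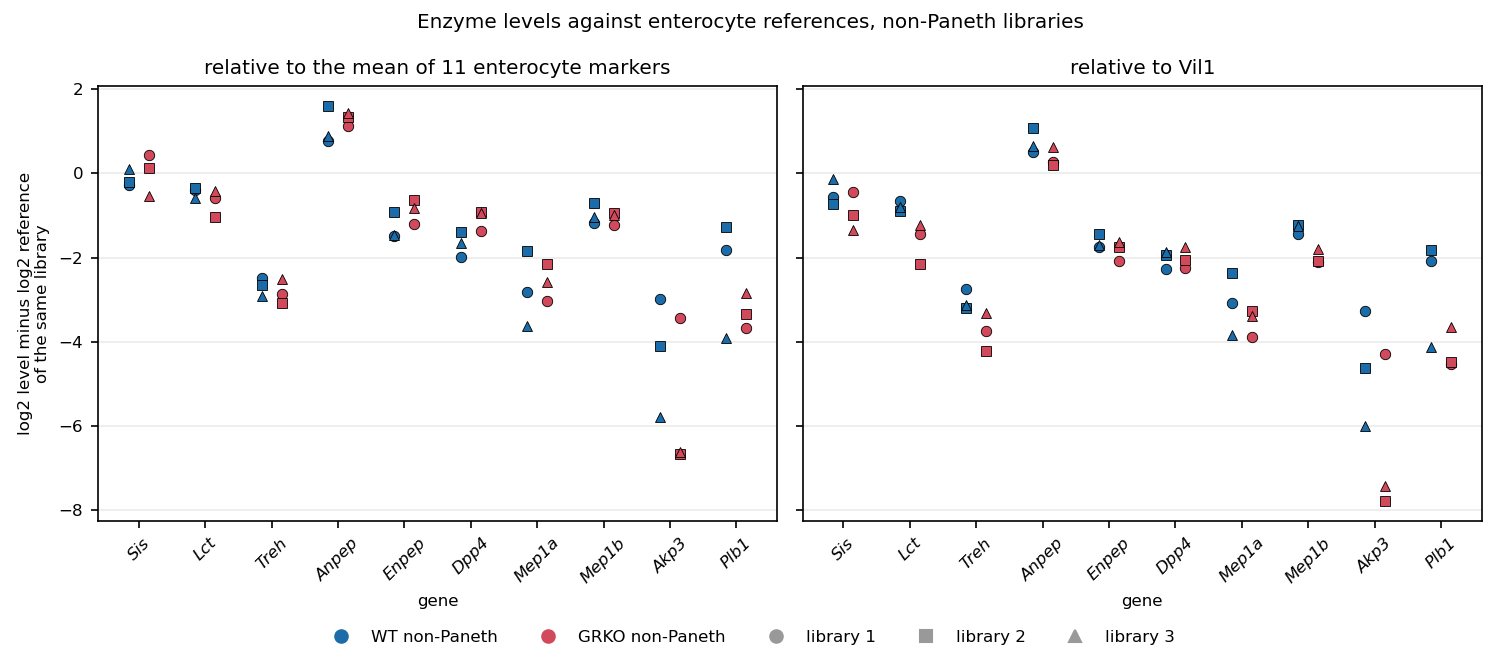
Log2 level of each enzyme minus the log2 level of the reference in the same non-Paneth library, with the mean of 11 enterocyte markers as the reference on the left and Vil1 on the right. Against the markers, WT and GRKO libraries overlap for 9 of the 10 genes, and against Vil1 the GRKO libraries of Lct, Treh and Mep1b lie below the WT libraries.

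The sorted fractions were then compared within a genotype. In WT mice all 10 enzymes were lower in Paneth than in non-Paneth cells, where 26.7% of all genes were lower, and in GRKO mice all 10 were lower as well, where 21.2% of all genes were. The median log2 fold change was -5.25 in WT and -3.43 in GRKO. The WT sizes rested in part on WT Paneth library 2, without which 8 of the 10 values, all but Dpp4 and Akp3, became more negative by over 1.5-fold and their median was -6.90. Each Paneth library was below each non-Paneth library of its genotype for all 10, which by CPM held for 62.4% of all genes in WT and 78% in GRKO. Lyz1 and the Defa genes took between 37.4% and 46.9% of the counts of a Paneth library and at most 0.139% of a non-Paneth library. With composition-scaled CPM the shares over all genes were 29.9% and 30.2%, and all 10 enzymes were still below.

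The enzymes differed in how far they fell. Akp3 was lowest in Paneth cells, with 10, 5 and 1 counts in the WT and 2, 2 and 1 counts in the GRKO libraries. By the fit, Akp3 was 219-fold lower than in non-Paneth cells in WT (log2 fold change -7.77, adjusted p = 0.00298) and 105-fold lower in GRKO (-6.72, adjusted p = 0.0265). From the summed counts it was 341-fold lower in WT (95% exact interval 210 to 597, counting error only) and 207-fold lower in GRKO (88.6 to 640 likewise). These ratios are not composition-scaled, so they are not on the scale of the fitted folds of the other enzymes. They also depended on single libraries, since GRKO non-Paneth library 1 held most of the Akp3 counts of its group. Without it the GRKO ratio was 52.3 and the fitted fold 23.8. The WT ratio was 189 without WT non-Paneth library 1 and 589 without WT Paneth library 1. Lct had 1.10, 32.5 and 4.67 CPM in WT and 1.28, 2.51 and 4.61 CPM in GRKO Paneth libraries. In WT, Lct was thus 77.0-fold lower in Paneth cells by the fit (log2 fold change -6.27 ± 1.12, adjusted p = 0.00155), and 401-fold lower without WT Paneth library 2, which held most of its counts there. In GRKO, Lct was 80.7-fold lower (-6.34 ± 1.17, adjusted p = 0.0028). The smallest difference in WT was that of Dpp4, which had 42.9, 57.0 and 45.6 CPM in WT and 30.7, 39.4 and 46.6 CPM in GRKO Paneth libraries. It was 9.25-fold lower than in non-Paneth cells in WT (-3.21 ± 0.20, adjusted p = 1.13e-08) and 4.25-fold lower in GRKO (-2.09 ± 0.20, adjusted p = 1.13e-06). In GRKO, Anpep (3.76-fold) and Mep1a (3.84-fold) differed less than Dpp4.

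Anpep remained the most abundant enzyme transcript in Paneth libraries, at 108, 269 and 132 CPM in WT and 124, 313 and 261 CPM in GRKO. Its fold change between the fractions was 17.8 in WT (-4.15 ± 0.46, adjusted p = 2.48e-05) and 3.76 in GRKO (-1.91 ± 0.42, adjusted p = 0.00433). The other 6 lay between Lct and Dpp4 in WT, from -3.94 for Mep1a to -5.85 for Treh, and without WT Paneth library 2 from -4.63 for Mep1a to -8.70 for Plb1. In GRKO, Mep1a had the largest adjusted p of the 10 (-1.94 ± 0.60, adjusted p = 0.0315). All 10 calls in WT held under each alternative that gave an adjusted p. In GRKO, 6 enzymes (Sis, Lct, Treh, Anpep, Dpp4 and Mep1b) were called without GRKO Paneth library 1, without GRKO Paneth library 3 and at a 1% false discovery rate.

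Paneth levels were also expressed as a share of the mean non-Paneth level, on CPM of all gene counts without composition scaling. Lyz1 and the Defa genes took 37.4% to 46.9% of Paneth counts, so these shares are not on the scale of the fitted folds above. With library totals only, all genes tested had a median of -0.68 in WT and -1.05 in GRKO between the fractions (log2). The shares of WT and GRKO are thus not directly comparable. In WT, Paneth cells held 0.269% of Akp3, 0.731% of Lct and 1.02% of Treh. Those of Sis, Plb1 and Enpep were 1.12%, 1.32% and 1.70%. The shares were larger for Mep1b (2.71%), Anpep (3.32%), Mep1a (3.87%) and Dpp4 (6.54%). In GRKO these 4 stood at 7.02%, 13.9%, 13.6% and 12%, Enpep at 6.17%, Sis at 3.85%, Plb1 at 1.53%, Treh at 1.37%, Lct at 0.636% and Akp3 at 0.467%. Without WT Paneth library 2 the WT shares were 0.165% for Lct, 0.152% for Plb1, 0.48% for Treh, 0.487% for Sis, 0.62% for Enpep and 1.22% for Mep1b, and those of Anpep, Mep1a, Dpp4 and Akp3 were 2.35%, 2.66%, 5.96% and 0.276%. The GRKO shares moved as well. Without GRKO Paneth library 2 those of Sis, Enpep and Mep1a fell to 2.18%, 3.56% and 8.81%, while those of Lct and Treh rose to 0.669% and 1.51%. Without GRKO non-Paneth library 1 the share of Akp3 was 1.92%. Vil1 stood at 10.7% in WT and 34.3% in GRKO, and Mgam at 17.6% and 26.0%. The summed enterocyte markers were 775 to 1873 CPM in WT Paneth libraries, and WT Paneth library 2 was the highest of its group in those markers and in 9 of the 10 enzymes, all but Akp3. Whether the enzyme counts in the Paneth fraction came from other cells was not tested.

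The makeup of the enzyme transcripts differed with the fraction. Anpep made up 37.6% of the enzyme counts in WT and 40.2% in GRKO non-Paneth cells, and 53.5% and 63.7% in Paneth cells. Dpp4 made up 5.51% and 7.79% in non-Paneth and 17.3% and 11.7% in Paneth cells. Its fractions did not overlap in WT but did in GRKO, at 6.54% to 8.44% in non-Paneth and 7.74% to 15.5% in Paneth libraries. Lct went the other way, with 13.1% and 10.4% in non-Paneth and 2.76% and 0.773% in Paneth cells. Sis made up 16.5% and 17.2% in non-Paneth and 6.42% and 6.93% in Paneth cells. The Lct share ran from 0.575% to 5.69% among the WT Paneth libraries. For Lct the libraries of the fractions did not overlap, at 7.86% to 15% in the 6 non-Paneth and 0.492% to 5.69% in the 6 Paneth libraries.

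**Figure D4:**
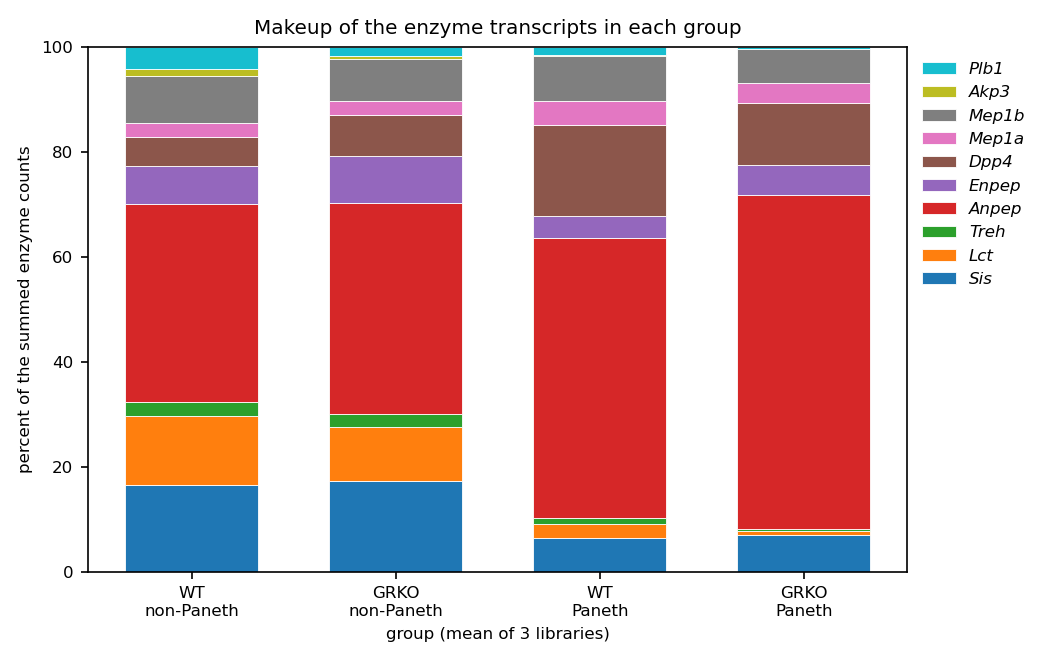
Share of each gene in the summed counts of the 10 enzymes, as the mean of 3 libraries per group. Anpep takes 37.6% and 40.2% of the non-Paneth columns and 53.5% and 63.7% of the Paneth columns, and Lct takes 13.1% and 10.4% against 2.76% and 0.773%.

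Receptor loss in Paneth cells was compared last. None of the 10 enzymes passed the test there by edgeR, where 3.22% of all genes were called in either direction, and DESeq2 called 0 as well. An unadjusted edgeR p below 0.05 was reached by 0 of the 10 enzymes and by 3492 of the 13057 genes tested. The CPM of WT and GRKO libraries overlapped for all 10. Over all genes tested, the GRKO libraries were wholly lower for 9.99% and wholly higher for 8.24%, so most genes overlapped as well. The differences ran from -2.92 ± 1.49 for Plb1 (adjusted p = 0.25) and -2.34 ± 1.09 for Lct (adjusted p = 0.211) to 0.34 ± 0.41 for Anpep (adjusted p = 0.619), with a median of -0.51. Sis had 9.25, 52.4 and 12.1 CPM in WT and 11.3, 51.1 and 19.7 CPM in GRKO Paneth libraries, a difference of -0.01 ± 0.77 (adjusted p = 0.994).

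Without WT Paneth library 2, 8 of these 10 Paneth differences, all but Dpp4 and Akp3, moved by over 1.5-fold, and the sign changed for 5 of them (Sis, Lct, Mep1a, Mep1b and Plb1). Plb1 had 1.49, 21.2 and 0.27 CPM in WT and 0.48, 1.5 and 1.34 CPM in GRKO Paneth libraries, so that a single WT library carried its mean. Without that library the log2 fold change of Plb1 was 0.37, that of Lct 0.04, that of Sis 1.38, that of Mep1a 0.66 and that of Mep1b 0.69, and none was called. Sis and Mep1a also became positive without GRKO Paneth library 1 or 3, and Enpep became negative without GRKO Paneth library 2, WT Paneth library 1 or WT Paneth library 3. With no filter on low counts, 4 enzymes passed as lower in GRKO Paneth cells (Lct, Treh, Mep1b and Plb1). A p that misses the threshold does not show that the enzymes were alike in the 2 genotypes.

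The genotype differences of the fractions were compared by the interaction term. It was positive for 9 of the 10 enzymes, meaning that the fitted difference was less negative in Paneth than in non-Paneth cells or, for Anpep and Enpep, positive, and 2 of the 10 passed, beside 11.5% of all genes that were higher on this term. Anpep differed by 2.24 ± 0.58 (adjusted p = 0.0236) and Dpp4 by 1.12 ± 0.27 (adjusted p = 0.0106). Mep1a had 2.0 ± 0.84 (adjusted p = 0.135) and Lct -0.07 ± 1.35 (adjusted p = 0.982). Leaving out each library in turn gave 1 to 7 enzymes: Anpep was lost without GRKO Paneth library 2, GRKO Paneth library 3 or WT Paneth library 3, and Sis, Treh, Enpep, Mep1a and Mep1b were added without WT Paneth library 2, where the term of Anpep was 2.89, that of Lct 2.31 and all 10 were positive. Neither passed at a 1% false discovery rate. The interaction and the 2 genotype comparisons share all their libraries.

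Levels between genes were compared per kilobase of exon. In WT non-Paneth cells Anpep was highest at 1233 ± 285 CPM per kilobase (SD, n = 3), followed by Mep1b (405 ± 40.9), Sis (294 ± 65.7), Lct (272 ± 14.9) and Treh (181 ± 27.0). Enpep (125 ± 16.8), Mep1a (111 ± 56.2), Dpp4 (84.5 ± 13.3), Akp3 (75.5 ± 63.5) and Plb1 (49.2 ± 30.9) followed. Neighbours in this order were separated in all libraries after Anpep, after Lct and after Treh, and overlapped elsewhere. In GRKO non-Paneth cells the order was the same but for Dpp4 and Mep1a, which changed places and overlapped, and Anpep alone was separated from its neighbour (404 ± 63.7 against 110 ± 12.9 for Mep1b). Anpep also led in both Paneth groups, at 40.9 ± 20.9 in WT and 56.1 ± 23.5 in GRKO, while Lct fell from the fourth place to the seventh in WT and the eighth in GRKO.

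Some enzymes varied far more than others among libraries of a group. Akp3 spread 6.58-fold in WT and 11.8-fold in GRKO non-Paneth libraries and Plb1 5.06-fold in WT, against 1.11-fold for Lct and 1.22-fold for Mep1b in WT. Genes known for a restricted place along the small intestine, picked here after their values were seen, gave a mixed picture. In WT non-Paneth libraries Fgf15, the ileal hormone of bile acid feedback, spread 13.4-fold and the ileal bile acid binding protein Fabp6 3.19-fold, whereas the ileal bile acid transporter Slc10a2 spread 1.73-fold, Fabp1 1.74-fold and Gata4 1.21-fold. In GRKO non-Paneth libraries the spreads were 30.3 for Fgf15, 3.71 for Fabp6, 22.4 for Slc10a2, 2.06 for Fabp1 and 1.36 for Gata4. The labels do not say which stretch of the small intestine each library holds, so that region cannot be told apart from library here.

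Across the 12 libraries the enzymes followed each other closely. Pearson correlations of log2(composition-scaled CPM + 1) between pairs of the 10 ran from 0.853 (Enpep and Akp3) to 0.988 (Sis and Enpep), with a median of 0.959, over libraries that fall into the fractions and genotypes given above. By the same measure, the 5 other genes most like the mean standardised profile of the 10 were Slc7a9 (0.997), Slc3a1 (0.996), 2010003K11Rik (0.996), Mpp1 (0.996) and Mfsd4b2 (0.996). Slc3a1 and Slc7a9 encode the chains of an exchanger for cystine and dibasic amino acids. Slc7a9 had a mean of 233.9 CPM in WT and 81.0 CPM in GRKO non-Paneth cells, and 7.48 and 5.62 CPM in Paneth cells. These are the same 3 tiers as the enzymes, which follows from picking Slc7a9 for its likeness to their profile.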

How the data were processed

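The deposited table holds raw read counts per gene, which the authors made with Trimmomatic 0.39, STAR 2.7.10a (its gene counting option) and mm39 from single-end stranded libraries. FastQC and DESeq2 are also named in the submitters' processing notes. The annotation is given as gencode v28, and its gene identifiers were named here from GENCODE vM39, which named 98.8% of 55414 rows. All 12 count columns were used.

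Counts were tested with edgeR 4.0.16 (R 4.3.3) by the quasi-likelihood F-test with robust dispersion, TMM scaling and its default filter, in 1 fit of the 4 groups. P-values were adjusted by Benjamini-Hochberg over 13057 genes, with calls at a 5% false discovery rate. The SE of a log2 fold change was its size over the square root of F. DESeq2 1.42.0, other scalings, filters, fits and left-out libraries were alternatives, and those without both WT libraries numbered 2 and the relative levels were added after seeing the data. The steps were tested on simulated data. The members and all gene and motif lists were chosen with earlier results of these data known.

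Every member was named, as were Nr3c1, for each other list the 4 genes of highest mean CPM (and, for hydrolases, transporters and transcription factors, genes called between genotypes), and the 5 genes most like the members' profile; some of these are given only in counts, and 1 hydrolase is not reported here by name. Deviations of same-numbered Paneth and non-Paneth libraries from their group means correlated at 0.402, 0.252 and 0.309 in WT. In GRKO the values were -0.0787, 0.254 and 0.482, and between same-numbered libraries of the 2 genotypes they ran from -0.117 to 0.174. Differently numbered libraries were not compared in this way, so whether the numbers pair libraries cannot be told for either genotype. Nothing says whether libraries came from separate mice, so p-values measure the spread between these samples, which may be technical. Replicates of a group differed by more than sampling noise (chi-square per degree of freedom at least 12.3).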

Additional observations from a re-analysis of the deposited data

Results flagged for a closer look

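The genotype differences of the fractions differed for Anpep by 2.24 and for Dpp4 by 1.12 on the log2 scale (Paneth minus non-Paneth, edgeR's interaction term, adjusted p = 0.0236 and 0.0106). Anpep had -1.90 in non-Paneth and 0.34 in Paneth cells, and Dpp4 had -1.49 and -0.36. Groups of 3 libraries were too small for a test of single outlying libraries.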

How the results depend on the processing

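All 10 enzymes stayed lower in Paneth than in non-Paneth cells of both genotypes, and lower in GRKO than in WT non-Paneth cells, in direction under every alternative run, and the calls varied. In GRKO Paneth against non-Paneth cells 6 enzymes passed at a 1% false discovery rate, and 6 to 9 with each library left out in turn. In GRKO against WT non-Paneth cells 10 passed with no filter on low counts and 3 at 1%, with 3 to 7 on leaving out libraries. In Paneth cells 4 passed with no filter. The interaction gave 6 enzymes with no filter, 0 at 1%, 6 without both WT libraries numbered 2, and 1 to 7 on leaving out libraries.

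With scaling by library totals only, the median over all genes became -0.68 in WT and -1.05 in GRKO (log2) for the fractions, 0.31 for GRKO against WT non-Paneth cells and -0.28 for the interaction. Relative to it the members' median was -5.37, -3.30, -2.12 and 1.41, against -5.26, -3.35, -2.12 and 1.33 with TMM. With totals only, 12.2% of the calls between the WT fractions, 7.57% between the GRKO fractions (10784 genes against 5116), 74.6% between the non-Paneth genotypes and 29.1% of the interaction were higher, against 47.3%, 45.8%, 46.9% and 61.2%. Without Lyz1 and the Defa genes in the scaling, 39.1% of the calls in Paneth cells were higher, against 52.9%.

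The count of genes called in GRKO against WT Paneth cells was 420, and became 2 with library totals only, 1780 with no filter, 0 with only the groups compared and at 1%, 977 with the replicate block, 1464 by DESeq2, 1 without both WT libraries numbered 2, and 0 to 1619 on leaving out single libraries. At 1% it was 3002 in non-Paneth cells and 955 for the interaction, and the latter was 1562 to 2610 on leaving out libraries. The cause of these shifts was not tested, apart from the stricter threshold itself.

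With the replicate block the members called were 10 in each fraction comparison, 0 in Paneth cells, 6 in non-Paneth cells (Akp3 in, Plb1 out) and 3 for the interaction (Mep1a added). Whether the numbers mark paired libraries is not known, and in the fraction comparisons the block changed no member's call.

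Signs reversed only for members that were not called. In Paneth cells Sis became 0.16 with library totals only, 0.0005 with no filter and 0.12 with the block, and Mep1a 0.082 with totals only. On leaving out single libraries Sis ran from -0.75 to 1.38, Lct from -2.90 to 0.042, Mep1a from -0.59 to 0.66, Mep1b from -1.09 to 0.69, Enpep from -0.42 to 1.95 and Plb1 from -3.49 to 0.37. Without both WT libraries numbered 2, Sis, Lct, Mep1a, Mep1b and Plb1 were 1.38, 0.039, 0.65, 0.69 and 0.37. For the interaction Lct was 0.86 with the block, 2.34 without both WT libraries numbered 2 and -0.64 to 2.31 on leaving out libraries, and Plb1 was -0.20 to 3.66.

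The summed share of the enzymes was 1.11% in WT and 0.282% in GRKO non-Paneth cells with TMM-scaled CPM, and 0.0608% in WT and 0.0620% in GRKO Paneth cells with defensins and lysozyme removed from the total. It ranged on leaving out libraries from 1.27% to 1.40%, 0.397% to 0.443%, 0.0212% to 0.0402% and 0.0294% to 0.0450%. Akp3 in Paneth cells, at 1 to 10 counts a library, is limited by depth.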
